A study of Homo sapiens with 8 samples.

Results

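The genes GPI, ALDOA, TPI1 and GAPDH encode 4 enzymes of glycolysis, the pathway that splits glucose into pyruvate. They were chosen by name, with earlier results of these data known. Every m1A site listed for them in the deposited table was taken, whatever its value. Together they held 16 of the 9962 single-base positions listed, in 4 of the 4945 genes listed. The m1A mark (N1-methyladenosine) is a methyl group on adenosine, and the series silenced TRMT6, the partner subunit of the methyltransferase TRMT61A, to ask where m1A then differed. Fragments of polyadenylated RNA were pulled down with an antibody against m1A and sequenced. The compared groups were siTRMT6 m1A (2 libraries), from neuroblastoma cells transfected with small interfering RNA against TRMT6, and control m1A (2 libraries), from cells labelled control. Sample titles name the cells SK-N-BE, while the source and cell line fields name SK-N-AS, and both are established neuroblastoma lines. Input libraries of both conditions were not analysed here, so a change in the amount of an mRNA and a change in its methylated share cannot be told apart, nor can fewer cells and less RNA per cell.

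In glycolysis, phosphoglucose isomerase (GPI) converts glucose phosphate to fructose phosphate, and aldolase A (ALDOA) cleaves the doubly phosphorylated fructose into 2 triose phosphates. Triose-phosphate isomerase (TPI1) interconverts these trioses, and GAPDH oxidises one of them in the first step that yields NADH. Neuroblastoma cells, like other fast-growing tumour cells, are known for high glycolytic flux, and mRNAs of these enzymes are abundant in most cells. The enzyme of TRMT6 and TRMT61A is known for methylating adenosine in the T-loop of tRNA and in T-loop-like stems of some mRNAs.

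The listed reads numbered 40771 in siTRMT6 1, 13812 in siTRMT6 2, 8655 in control 1 and 46007 in control 2, and these totals cover listed positions only. A count of 0 may mean no reads or no call, which the sources used here do not say. The names of the count columns do not tell m1A from input, and they were taken as m1A because the deposited table lists m1A sites. Nothing says that replicates were separate cultures, so p-values reflect the spread of these 4 libraries alone, and that spread may be technical.

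No sequence of the 16 positions was at hand, but RefSeq promoter windows (GRCh38.p14) held 511 other listed positions. All 511 had an A on the forward strand of the genome, whichever strand was transcribed. All 4 enzymes are transcribed from the forward strand, and 1 of their 16 positions, in GAPDH, was also listed for a reverse-strand transcript. Of the 9962 listed positions, 7174 were listed for forward-strand transcripts only, 2500 for reverse-strand transcripts only and 288 for both. The pyruvate kinase gene PKM, which acts at the end of the pathway, has a 5' UTR position listed for reverse-strand transcripts only. The windows did not cover all gene starts alike, since TPI1 position 6867625, 205 nt from its RefSeq start, was in none. The PKM position, 257 nt from its RefSeq start, is the only 1 of 40 glycolysis positions inside a window. Its context, with 10 bases on each side and the listed base in capitals, is read on the transcript strand at chr15:72231324-72231344 (minus strand):

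PKM: ccgccgcgctTcctcctgaag

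The listed base is therefore T in the gene (U in the RNA), not an adenosine, in the PKM transcript. The T-loop letters GTTCNANNC were not in this stretch on either strand. They were in 5 of the 522 stretches of the same length around windowed positions (0.958%). In none of the 522 was the A of these letters the listed base on the transcript strand. Of the 511 windowed positions, 341 were listed for reverse-strand transcripts only. At those the listed base is T on the transcript strand, so it could not be that A whatever the context.

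GPI was the most widely listed of the 4 enzymes, with 9 positions, a number that only 66 genes of the table reached. Summed over them, GPI had 36 reads in siTRMT6 1 and 27 in siTRMT6 2, against 0 in control 1 and 84 in control 2. The libraries differ in listed reads, but by these sums and by the shares given further on, the 2 siTRMT6 values did not stand apart from the 2 control values, so the groups overlapped. With 147 reads in all, GPI ranked 47th of the 4945 genes by listed reads.

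ALDOA had 27 reads in siTRMT6 1 and 40 in siTRMT6 2 over 3 positions, and 0 in both controls. GAPDH, widely used as a reference gene, had 32 reads in siTRMT6 1 and 23 in siTRMT6 2 over 2 positions, and 0 in both controls. For ALDOA and GAPDH, every siTRMT6 library was therefore above every control library. TPI1 had 26 reads in siTRMT6 1 and 0 in siTRMT6 2, against 0 in control 1 and 32 in control 2, and its groups overlapped.

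**Figure D1:**
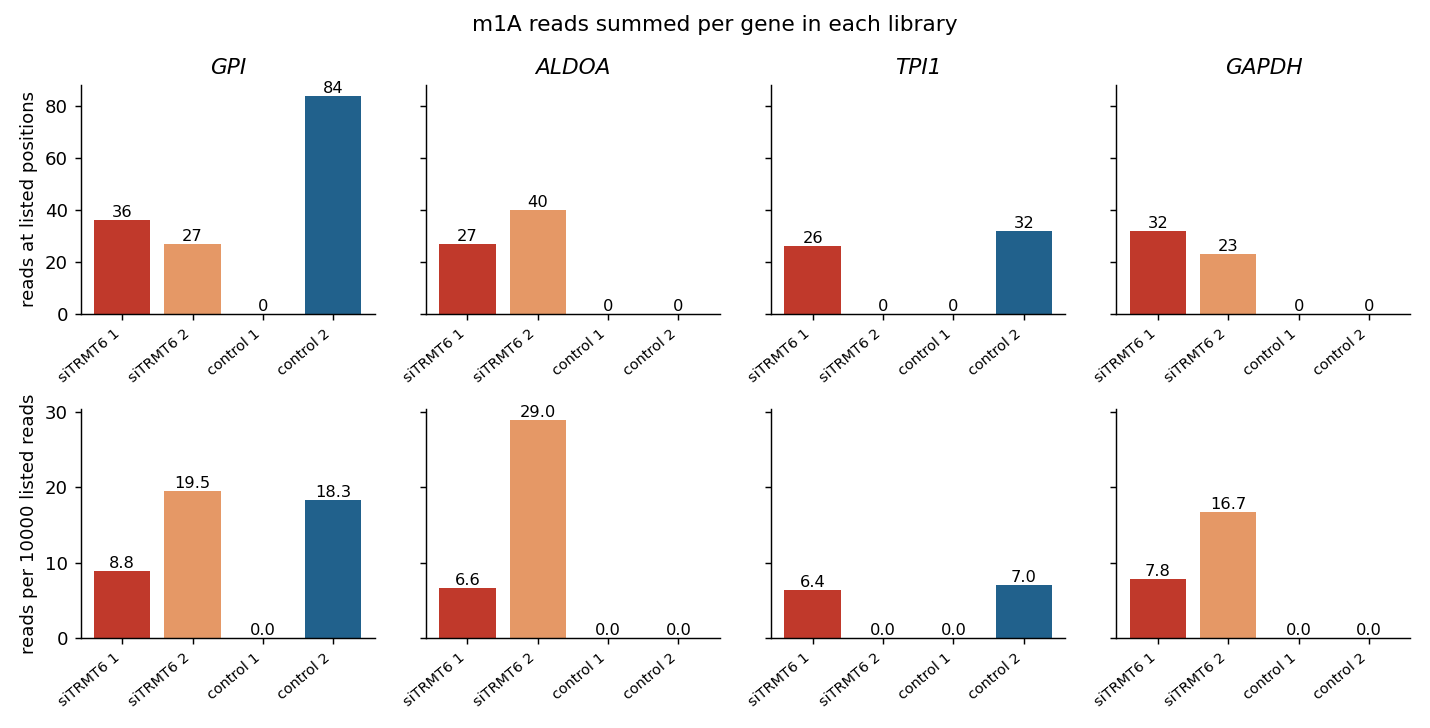
Reads at listed positions summed per gene (upper row) and the same per 10000 listed reads of the library (lower row), 1 bar per library with its value above it. GPI and TPI1 have reads in both conditions, ALDOA and GAPDH in the siTRMT6 libraries only, and control 1 is at 0 for all 4 genes.

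Per 10000 listed reads of each library, GPI had 8.83 and 19.5 in the siTRMT6 libraries, against 0 and 18.3 in the controls. Its mean share was 14.2 ± 7.58 in siTRMT6 and 9.13 ± 12.9 in control (SD, n = 2 each). ALDOA had 6.62 and 29.0 in the siTRMT6 libraries, a mean of 17.8 ± 15.8 (SD, n = 2), against 0 in both controls. The smaller siTRMT6 library thus gave ALDOA the larger share, and the same held for GPI and GAPDH. GAPDH had 7.85 and 16.7, a mean of 12.3 ± 6.22 (SD, n = 2), against 0 in both controls. TPI1 had 6.38 and 0 in the siTRMT6 libraries, against 0 and 6.96 in the controls.

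The 4 genes fell into 2 patterns, and the background bears on both. Across the whole table, both siTRMT6 libraries had a larger share than both controls in 407 of 4945 genes (8.23%), and 2 of the 4 enzymes, ALDOA and GAPDH, were among them. The opposite order held for 230 genes and for none of the 4. Only a gene with reads in both siTRMT6 libraries could show the first order, and GPI, ALDOA and GAPDH were 3 of the 769 such genes. The order thus held for 407 of these 769 genes and for 2 of these 3 enzymes. Of the 769, 221 (28.7%) had no control reads. Of the 494 genes with reads in both controls, 122 (24.7%) had no siTRMT6 reads. An exact permutation test of a single gene, 2 libraries against 2, cannot give a two-sided p below 0.333.

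In the edgeR quasi-likelihood test of gene sums (TMM scaling, Benjamini-Hochberg adjustment), 0 of 975 genes passed an adjusted p of 0.05 (0%). At an unadjusted p under 0.05 there were 126 (12.9%), among them ALDOA and GAPDH. That count was 100 of 975 with total listed reads in place of TMM and 66 of 4945 with no filter. ALDOA and GAPDH were among them in both. With a replicate block the count was 1 of 975. With that block, neither ALDOA nor GAPDH had an unadjusted p under 0.05. With 1 library left out in turn, the edgeR log2 value ran from 7.65 to 8.73 for ALDOA and from 7.78 to 8.02 for GAPDH. Those fits leave a lone library in 1 group, so their p-values are not weighed here. All 4 enzymes passed the filter on low counts, ALDOA and GAPDH through their siTRMT6 reads alone. By DESeq2, 1 gene was called, which was none of the 4 enzymes, and 47 passed before adjustment, ALDOA and GAPDH among them.

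ALDOA had an edgeR log2 value of 8.38 ± 2.32 (SE; adjusted p = 0.386). GAPDH had 7.93 ± 2.43 (SE; adjusted p = 0.386). Neither passed after adjustment. These fitted values depend on how edgeR treats a group at 0. Against a floor of 3 counts over both controls, with each condition scaled to its listed reads, ALDOA was at least 22.4-fold higher and GAPDH at least 18.4-fold higher in siTRMT6. The bounds hold only if a deposited 0 means no reads, and they take no account of the spread between libraries. The smallest listed count above 0 at any position was 3 in control 1 and 4 in control 2. Whether smaller counts were set to 0 is not given, and if so the bounds may not hold. Without control 2 the log2 of the bound was 1.82 for ALDOA and 1.54 for GAPDH, against 4.48 and 4.20 with all libraries, because control 1 holds few listed reads.

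GPI and TPI1 showed no difference larger than the spread. The edgeR log2 value was 0.13 ± 2.29 (SE) for GPI and -0.23 ± 3.02 (SE) for TPI1, each with an adjusted p of 1. The ratio of summed reads had the other sign for GPI, with a log2 of -0.41, and the same sign for TPI1, with -0.30. All control reads of GPI and TPI1 came from control 2. Without it, GPI had no control reads and an edgeR log2 value of 7.99 (adjusted p = 0.212), and TPI1 did not pass the filter. Without control 1, the GPI value was -0.86 (adjusted p = 1), so its sign rested on which control was kept. Control 1 had reads at 8.22% of all listed positions and at none of the 16.

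Position by position, each of the 16 had reads in exactly 1 library, as did 98.6% of all listed positions. Of the 16, 11 were siTRMT6 positions (5 in siTRMT6 1 and 6 in siTRMT6 2), and 5 were control positions, all in control 2. In the authors' deposited table all 16 had an adjusted p below 0.05, 11 higher and 5 lower in siTRMT6, where 4937 of 9962 positions (49.6%) were higher and 5024 lower. Nearly every listed position thus passed in the authors' deposited table, so passing it does not set these positions apart. The authors' deposited table gave them log2 fold changes from -6.18, at the TPI1 coding position, to 5.82, at the GAPDH 3' UTR position. The largest adjusted p in the authors' deposited table for these genes was 0.0146, at a GPI position with 8 reads. No position of the 4 enzymes passed the count filter of the position-level edgeR test, since none had reads in 2 libraries. Without that filter the adjusted p of each of the 16 was 0.519.

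GPI is on chromosome 19 (hg38, positions counted from 1), and 7 of its 9 positions lay in coding sequence. Going 5' to 3', position 34365358 had 12 reads in control 2. Next came 34368662 with 9 reads and 34377853 with 8 reads, both in siTRMT6 2, and 34378968 with 14 reads in siTRMT6 1. Thus 3 neighbouring siTRMT6 positions followed the first control position. Position 34393944 had 25 reads in control 2. Positions 34396586, with 22 reads in siTRMT6 1, and 34396602, with 27 reads in control 2, lay only 16 nt apart. In the 3' UTR, 34400169 had 10 reads in siTRMT6 2 and 34400456 had 20 reads in control 2. The conditions therefore alternated along the GPI mRNA and did not occupy separate stretches of it. Position 34400456 was listed for 1 of the 3 GPI transcripts and also for the 5' UTR of RP11-618P17.4 on the same strand, so its reads cannot be assigned to GPI alone.

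**Figure D2:**
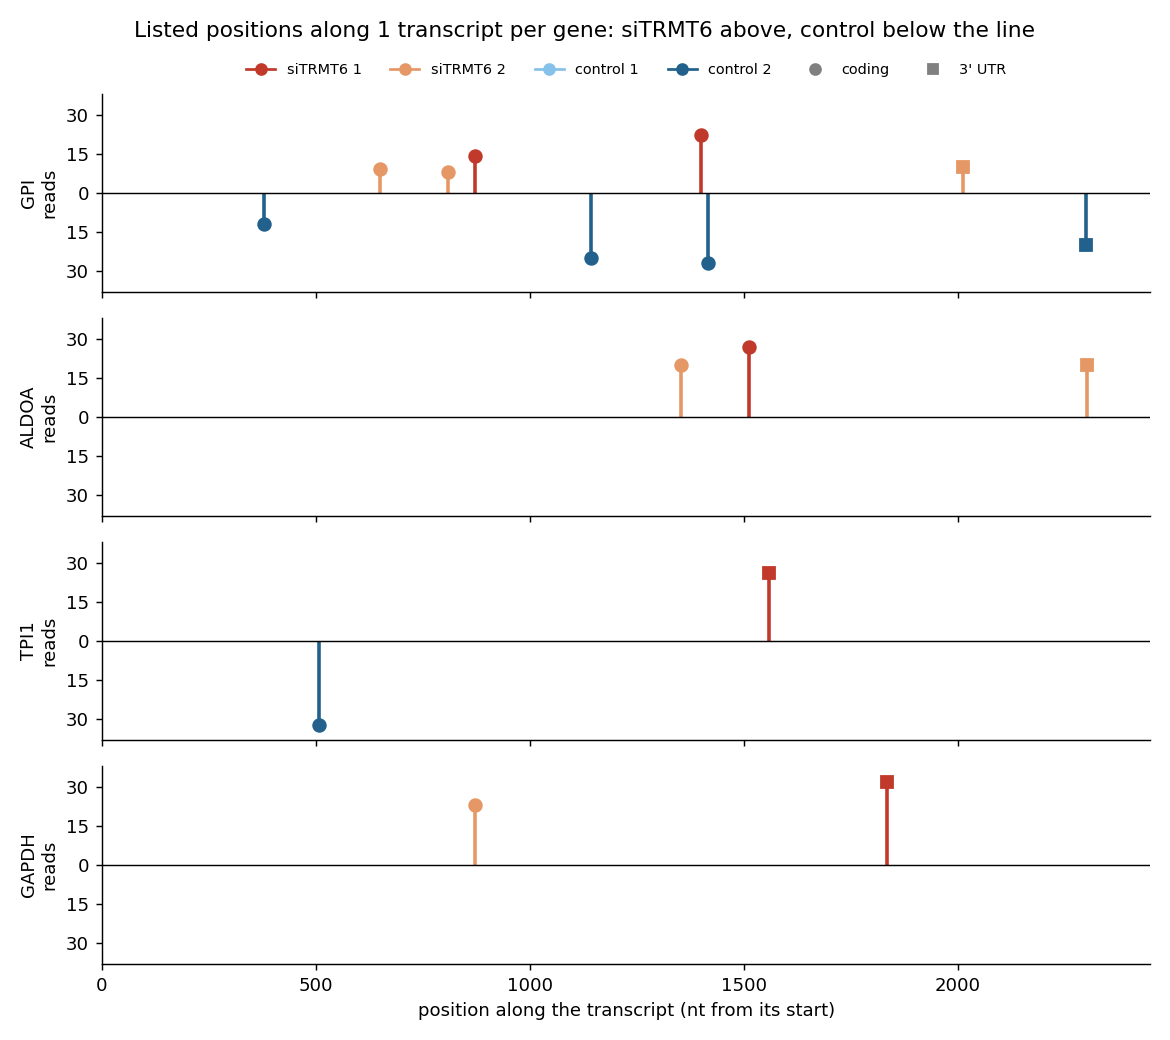
Reads (vertical axis) at each listed position along the transcript that holds most positions of the gene, by distance from the transcript start in nt (horizontal axis), siTRMT6 libraries above the line and control libraries below it, with circles for coding positions and squares for 3' UTR positions. GPI has positions of both conditions throughout, including a pair 16 nt apart, TPI1 has 1 of each far apart, and ALDOA and GAPDH have siTRMT6 positions only.

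When positions of a gene within 200 nt were joined, 8488 regions resulted, and both conditions were present in 17.3% of them. The 16 positions formed 15 regions, and 1 held both conditions, the GPI pair 16 nt apart. Summed, this GPI region had 22 reads in siTRMT6 1 and 0 in siTRMT6 2, against 0 in control 1 and 27 in control 2. Its edgeR log2 value was -0.19 ± 3.49 (SE; adjusted p = 1), although the authors' deposited table gave its bases 5.27 and -5.94. No region of the table was called by edgeR (0 of 525 tested, 131 before adjustment). DESeq2 called 1 of the regions, outside the 4 enzymes.

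Distances along the mRNA are shorter than along the genome, because introns are removed. The GPI positions 34377853 and 34378968 are 1115 nt apart in the genome and 63 nt apart in each of the 3 GPI transcripts. The ALDOA coding positions are 1261 nt apart in the genome and 160 nt apart in all 10 ALDOA transcripts. Joining within 200 nt along a shared transcript, a choice made after seeing the data, gave 12 regions for the 4 enzymes, of which again 1 held both conditions, against 1570 of 7868 regions (19.95%) in the whole table. The joined ALDOA coding region had 27 reads in siTRMT6 1 and 20 in siTRMT6 2, and none in either control. It passed the count filter through these reads alone, and edgeR called no region under this joining (0 of 612 tested, 139 before adjustment). A GPI region of 3 coding positions had 14 reads in siTRMT6 1 and 17 in siTRMT6 2, and none in either control. It was below the count filter. Its extent rested on 1 of the 3 GPI transcripts, where 34377853 lies 159 nt from the position before it. In the others this distance is 243 nt, beyond the 200 nt limit. The pair 63 nt apart, joined in each transcript, had 14 reads in siTRMT6 1 and 8 in siTRMT6 2. Both siTRMT6 libraries thus had listed reads in the same stretch of these mRNAs, at different bases. How many of the 7868 regions had reads in both siTRMT6 libraries and no control reads was not counted. Among genes with reads in both siTRMT6 libraries, 28.7% had no control reads, so the pattern is not set apart here.

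ALDOA is on chromosome 16. Position 30067603 (coding) had 20 reads in siTRMT6 2, 30068864 (coding) had 27 in siTRMT6 1, and 30070331 (3' UTR) had 20 in siTRMT6 2. The 3' UTR position lay 89 nt before the RefSeq end of the gene and 788 to 875 nt downstream of the second coding position along the 9 transcripts that hold both.

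GAPDH and TPI1 are both on chromosome 12. GAPDH position 6536759 had 23 reads in siTRMT6 2, and it was coding in 5 of 6 transcripts and 5' UTR in the other. GAPDH position 6538330 had 32 reads in siTRMT6 1 in the 3' UTR, 41 nt before the RefSeq end. They were 963 nt apart along 4 of the 5 transcripts that hold both and 990 nt along the fifth. An antisense non-coding RNA, RP5-940J5.9, was also listed at 6538330, and whether counting used strand is not given in the sources used here, so the reads of GAPDH and its antisense partner cannot be told apart.

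TPI1 position 6870744 had 26 reads in siTRMT6 1 in the 3' UTR, 204 nt before the RefSeq end. TPI1 position 6867625 had 32 reads in control 2 in coding sequence, 95 to 507 nt from the start of the 3 transcripts that hold it. They lay 1052 nt apart along each of these transcripts. On the genome the coding position lay 205 nt from the RefSeq start of TPI1. Each of the 2 positions had reads in 1 library only. Among all 2167 listed 3' UTR positions inside a RefSeq gene, the median distance to the gene's end was 1187 nt, and 48 (2.22%) lay within 100 nt of it. Of the 5 such positions in the 4 enzymes, 2 did so, those of ALDOA and GAPDH. The length of a 3' UTR limits this distance and was not taken into account, so the shares are not like for like. GPI positions 34400169 and 34400456 lay 2244 and 1957 nt before the end.

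Processed pseudogenes could share reads with these mRNAs. RefSeq names 65 GAPDH pseudogenes, 4 of TPI1, 2 of ALDOA and none of GPI, and how reads that map to several places were counted is not given. The read numbers of GAPDH, and to a lesser degree of TPI1 and ALDOA, are therefore uncertain.

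Reads per position ran from 8 to 32 in the 4 enzymes, with a median of 21, against a median of 9 over all listed positions. At least 20 reads were found at 11 of the 16 and at 8.05% of all positions. The 4 enzymes were chosen with earlier results known, so this contrast may restate that choice, which was not tested. The highest counts were 32, at TPI1 6867625 and GAPDH 6538330, and 1.51% of listed positions had as many. All 7 positions of ALDOA, TPI1 and GAPDH had 20 reads or more, while 5 of the 9 GPI positions had 8 to 14. GPI thus reached its sum through many positions, and GAPDH and TPI1 through 2 each.

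**Figure D3:**
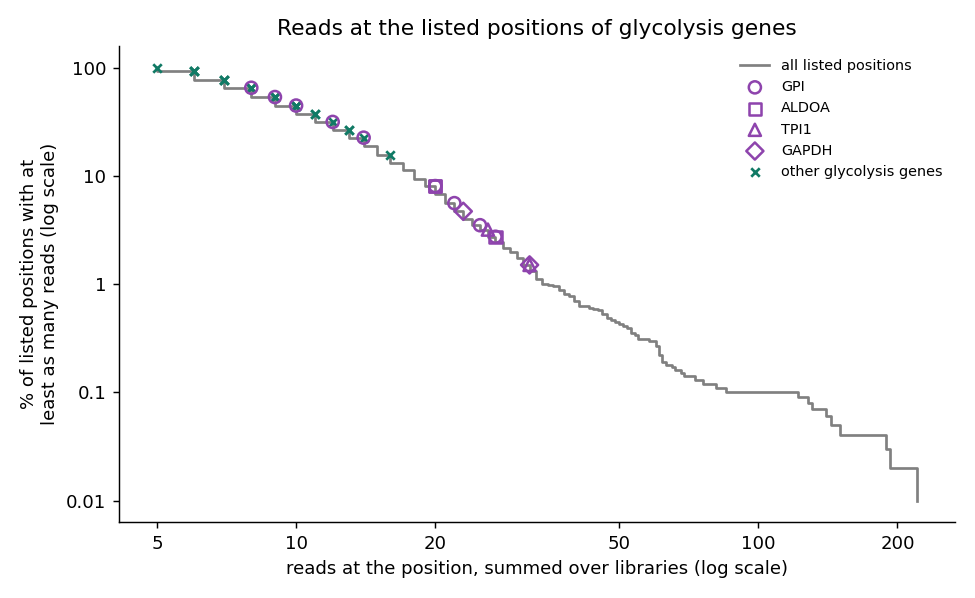
Share of all listed positions with at least as many reads (vertical axis, %, log scale) by reads at the position (horizontal axis, log scale), with the positions of the 4 enzymes as open purple symbols and those of the other glycolysis genes as crosses. The 7 positions of ALDOA, TPI1 and GAPDH lie at 20 reads or more, and the other genes of the pathway at 16 or fewer.

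The other genes of the pathway were read from a list of 24 enzymes and 8 transporters and regulators. Of the 24 other enzymes, 9 had a listed position, as had 3 of the 8 transporters and regulators. Their 24 positions had 5 to 16 reads, with a median of 9, and 10 were siTRMT6 and 14 control positions. None of the 12 genes reached the read sum of ALDOA, and HK1 equalled that of GAPDH, with 55. This contrast, too, may restate how GPI, ALDOA, TPI1 and GAPDH were chosen. Among the enzymes without a listed position were ENO1, LDHA and LDHB.

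At the entry of the pathway, HK1, which phosphorylates glucose, had 9 reads in siTRMT6 1 and 6 in siTRMT6 2, against 0 in control 1 and 40 in control 2 over 6 positions. SLC2A1, the glucose transporter GLUT1, had none in siTRMT6, against 8 in control 1 and 10 in control 2, at bases 5 nt apart. SLC2A1 was the only 1 of the 16 listed pathway genes with reads in control 1. In the whole table, 122 of 494 genes with reads in both controls (24.7%) had no siTRMT6 reads. Both SLC2A1 positions were listed for reverse-strand transcripts, and their bases were not at hand. At the phosphofructokinase step, PFKL had 6 reads and PFKM 8 in siTRMT6 1, while PFKP had 20 in control 2. Below GAPDH, PGK1 had 7 reads in siTRMT6 2, against 36 in control 2.

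Close pairs of opposite condition occurred here too. HK2 had 6 reads in siTRMT6 1 and 9 in control 2 at bases 15 nt apart, and ENO2, the neuronal enolase, had 14 in siTRMT6 1 and 16 in control 2 at 20 nt. In PGK1, 7 reads of siTRMT6 2 and 13 of control 2 were 27 nt apart. The remaining listed genes, PGAM1, PKM, the lactate transporter gene SLC16A1 and PFKFB4, had 1 position each with 5 to 10 reads. Those of PKM, SLC16A1 and PFKFB4 were listed for reverse-strand transcripts.

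**Figure D4:**
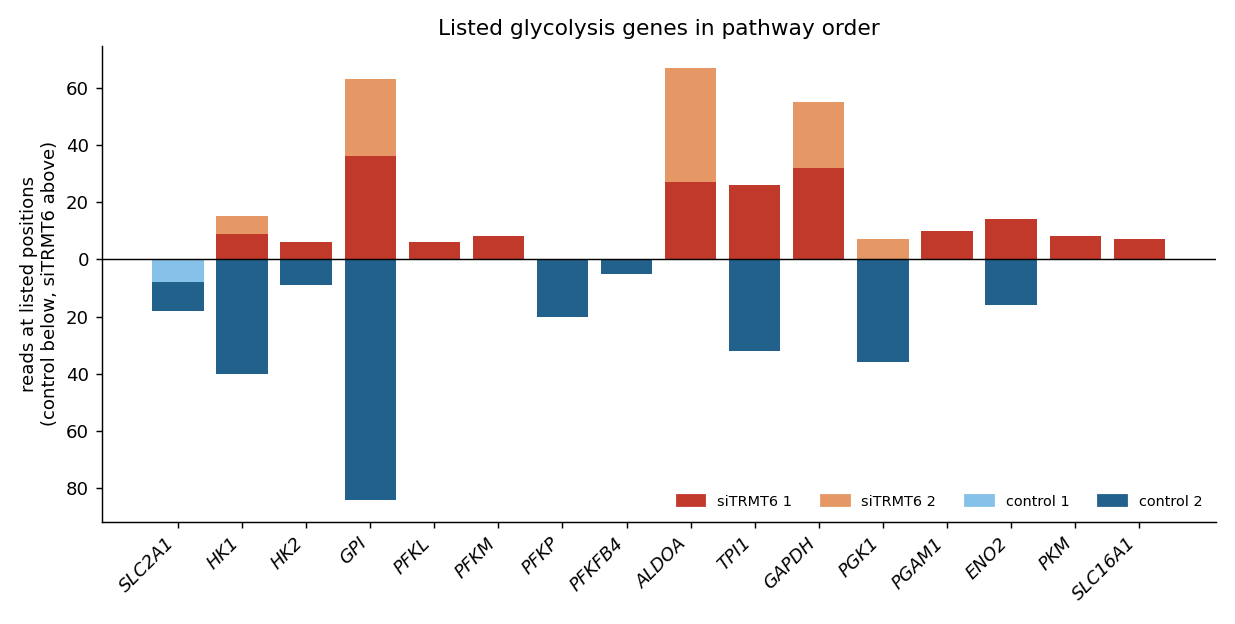
Reads at listed positions (vertical axis) summed per gene and library for the 16 listed genes of the pathway, from glucose uptake (left) to lactate export (right), siTRMT6 libraries stacked above the line and control libraries below it. GPI, ALDOA, TPI1 and GAPDH hold the tallest siTRMT6 stacks, and ALDOA and GAPDH have none below the line.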

How the data were processed

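Per the submitters' processing notes, FastQC 0.11.3, STAR and the genome build hg38 were used. The sources used here give no caller, counting rule, input subtraction or test. The deposited table holds read counts in 4 columns, per the file headers. The authors' log2 fold change stands beside them, with the authors' p-value before and after adjustment and the transcripts at each site. Listed sites count from 0 and are given here from 1.

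Counts were taken as deposited, summed per gene and over positions of a gene within 200 nt, and tested on the whole table with edgeR 4.0.16 in R 4.3.3 (TMM, filterByExpr with a minimum count of 10, quasi-likelihood test, Benjamini-Hochberg adjustment at 0.05). The steps were also run on simulated counts with much less spread than these data, where the edgeR common dispersion of gene sums was 2.6. That run therefore does not show how the test performs here. DESeq2 1.42.0 was an alternative. SE of an edgeR log2 value is its size over the square root of F. Alternatives were other scaling, no filter, a replicate block, other joining distances and leaving out each library. The named genes are the 4 enzymes, with every listed position. Members and lists were chosen with earlier results of these data known. Reads carry no molecular identifiers.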

Additional observations from a re-analysis of the deposited data

How the results depend on the processing

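No position, region or gene sum of the 4 enzymes was called under any setting run. The adjusted edgeR or DESeq2 p of the gene sums ran from 0.212 to 1 over the 8 alternatives that tested ALDOA, GAPDH and GPI, and from 0.999 to 1 over the 6 that tested TPI1. Over the whole table, edgeR called 22 of 34 positions, none of them in the 4 enzymes. It called 14 with total listed reads in place of TMM, and 0 with DESeq2 (14 at an unadjusted p under 0.05), with no filter (0 unadjusted), with the replicate block (0 unadjusted) and without each library in turn (range 0 to 0, with 0 to 5 unadjusted). DESeq2 called 1 region and 1 gene where edgeR called 0. The replicate numbers were not shown to pair the libraries (correlation of deviations -0.0901 over 975 genes).

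Leaving out each library moved the log2 of summed reads, with a group at 0 set to 3 counts, between -0.80 and 1.74 for GPI, -1.43 and 0.46 for TPI1, 1.82 and 5.72 for ALDOA, and 1.54 and 4.92 for GAPDH. The lowest ALDOA and GAPDH values and the highest GPI value were without control 2, which holds most control reads. Leaving out 1 library leaves a lone sample assumed to vary like the others. Listed reads are not sequencing depth, which is not known here.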
